A study of Mus musculus with 16 samples.

Results

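The genes described here are 10 members of the pathway that presents peptides on MHC class I molecules. They are the heavy chains H2-K1 and H2-D1, the light chain B2m, the peptide transporter subunits Tap1 and Tap2, the loading chaperone Tapbp, the immunoproteasome subunits Psmb8, Psmb9 and Psmb10, and the transactivator Nlrc5. Members were chosen by gene symbol (H2-K1 is ENSMUSG00000061232, H2-D1 is ENSMUSG00000073411, B2m is ENSMUSG00000060802, Tap1 is ENSMUSG00000037321, Tap2 is ENSMUSG00000024339, Tapbp is ENSMUSG00000024308, Psmb8 is ENSMUSG00000024338, Psmb9 is ENSMUSG00000096727, Psmb10 is ENSMUSG00000031897, Nlrc5 is ENSMUSG00000074151), 10 of the 22287 genes in the table, and all 10 were among the 12514 genes tested. RNA-seq was performed on bone marrow derived macrophages (BMDMs) of C57BL/6J mice aged 8 weeks (a wild-type inbred strain), in 16 libraries that form 8 groups of 2. For 7 days the marrow cells grew in GM-CSF (GM) or M-CSF (M), on dishes treated for tissue culture (TC, hydrophilic) or left untreated (noTC, hydrophobic). By the paper's methods, GM cultures were seeded more densely than M cultures, and GM-CSF was given at a lower concentration than M-CSF. Growth factor, its concentration and seeding density therefore cannot be told apart in GM against M cells. Cells of the 4 kinds (GM-TC or GM-noTC, and M-TC or M-noTC) were sequenced at steady state, and the groups whose names end in LPS after 3 h with the bacterial lipopolysaccharide (LPS) that activates TLR4. No sort is described for these libraries, and a change in a bulk library may reflect fewer cells of a type or less RNA per cell, which cannot be told apart.

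The labels do not say whether replicates came from separate mice, and p-values measure only the spread between these samples. Total counts lay between 17527802 and 31458363 per library, at which 3 counts equal 0.0954 to 0.171 CPM (counts divided by the scaled library size). The 6 macrophage markers Adgre1, Csf1r, Itgam, Cd68, Lyz2 and Mertk summed to 19863 to 46477 CPM per library. Lyz2 made up most of the sum (33789 to 41569 CPM in GM, 14943 to 21083 in M). Itgam and Mertk were also higher in GM libraries, whereas Adgre1, Csf1r and Cd68 were higher in M libraries. Markers of T and NK cells summed to at most 1.63 CPM with Cd3e and Ncr1 at 0 throughout, those of B cells to at most 1.28, of neutrophils to at most 16.5, of mast cells and basophils to at most 2.65 and of stromal cells to at most 11.5 CPM. The 5 heart muscle markers Myh6, Actc1, Myl2, Tnnt2 and Mb summed to 18.4 to 52.8 CPM in the 4 libraries from TC dishes without LPS and to at most 0.237 CPM in the other 12. CPM below are scaled with TMM factors of edgeR, values of a group are given per library (n = 2), and calls are those of the edgeR quasi-likelihood test at a Benjamini-Hochberg (BH) adjusted p under 0.05.

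Class I molecules display peptides from the cytosol to CD8 T cells. Proteasomes cut the peptides, and upon inflammatory signals the catalytic subunits encoded by Psmb8, Psmb9 and Psmb10 replace the constitutive ones encoded by Psmb5, Psmb6 and Psmb7. TAP carries peptides into the endoplasmic reticulum, where tapasin (Tapbp) edits the peptides bound by heavy chains paired with beta-2 microglobulin, and NLRC5 is the transactivator that works at the SXY module of class I promoters. Interferon and NF-kB signalling, both triggered by LPS in macrophages, are known inducers of these genes.

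Of the 10 members, 8 had a RefSeq promoter window (250 bases before to 50 after a start site, build GRCm38.p6), and Tap2 and Nlrc5 did not. Where a gene had several windows, the first was used. In the windows of H2-K1, H2-D1 and B2m, a TGACG was followed after exactly 20 bases by ATTGG, the letters of the X2 and Y boxes of the SXY module. The same arrangement was found in 31 of the 32851 windows in the table (0.0944%), searching both strands. It was defined after the sequences had been read, so the 3 matches are a description. The stretches are shown because they hold this arrangement and the NF-kB and IRF letters of the same promoters. Capitals mark, from left to right in H2-K1 and H2-D1, the NF-kB match, the IRF core on the opposite strand, TGACG and ATTGG, and in B2m the IRF core comes before the NF-kB match.
H2-K1 (chr17:34000354-34000463, minus strand): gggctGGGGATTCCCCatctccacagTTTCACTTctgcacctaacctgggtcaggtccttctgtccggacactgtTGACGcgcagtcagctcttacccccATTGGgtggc
H2-D1 (chr17:35262918-35263027, plus strand): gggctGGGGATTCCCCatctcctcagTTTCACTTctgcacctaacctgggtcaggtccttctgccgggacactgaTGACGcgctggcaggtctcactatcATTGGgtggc
B2m (chr2:122147545-122147643, plus strand): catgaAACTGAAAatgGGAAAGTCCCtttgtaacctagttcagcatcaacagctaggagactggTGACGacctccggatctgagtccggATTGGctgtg

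The IRF core (AANNGAAA, either strand) was in 23.9% of all windows and the NF-kB motif in 8.46%, against 3 of the 8 member windows each, the same 3 genes. The longer interferon response element ISRE, which contains the IRF core, was in 3.44% of windows and among the members in B2m alone. TGACG began 41 bases before the start site of H2-K1, 101 bases before that of H2-D1 and 78 bases before that of B2m. The printed stretches of H2-K1 and H2-D1 had the same base at 99 of 110 positions. No match to any of these 4 motifs was found in the windows of Tap1, Tapbp, Psmb8, Psmb9 and Psmb10, which says only that these letters are not there. Tap1 and Psmb9 start 226 bases apart on opposite strands of chromosome 17, and their windows share 275 bases. Among 13 other class I heavy chain genes with a window, 11 held the IRF core, 6 the NF-kB motif and 1, H2-M3, the X2 and Y arrangement.

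Per kilobase of the principal transcript, the light chain B2m was the highest of the 10 members in all 8 groups, followed by H2-D1, H2-K1 and Tapbp in that order. In GM-TC cells the levels were 2714 ± 273 CPM per kb for B2m (SD), 941 ± 68.6 for H2-D1, 466 ± 36.2 for H2-K1 and 82.3 ± 1.34 for Tapbp. The lowest level at steady state was that of Nlrc5, with 4.25 ± 0.485 CPM per kb in GM-TC and 6.53 ± 0.317 in M-TC. Upon LPS challenge Psmb9 was the lowest in each group, at 20.6 ± 0.0710 CPM per kb in GM-TC-LPS and 42.3 ± 0.473 in M-TC-LPS. Some neighbours in the order did not differ beyond their spread. Psmb10 and Psmb8 stood at 133 ± 2.89 and 133 ± 0.147 CPM per kb in M-TC-LPS, and Nlrc5 and Tap2 at 30.3 ± 1.32 and 30.1 ± 0.114 in GM-TC-LPS.

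**Figure D1:**
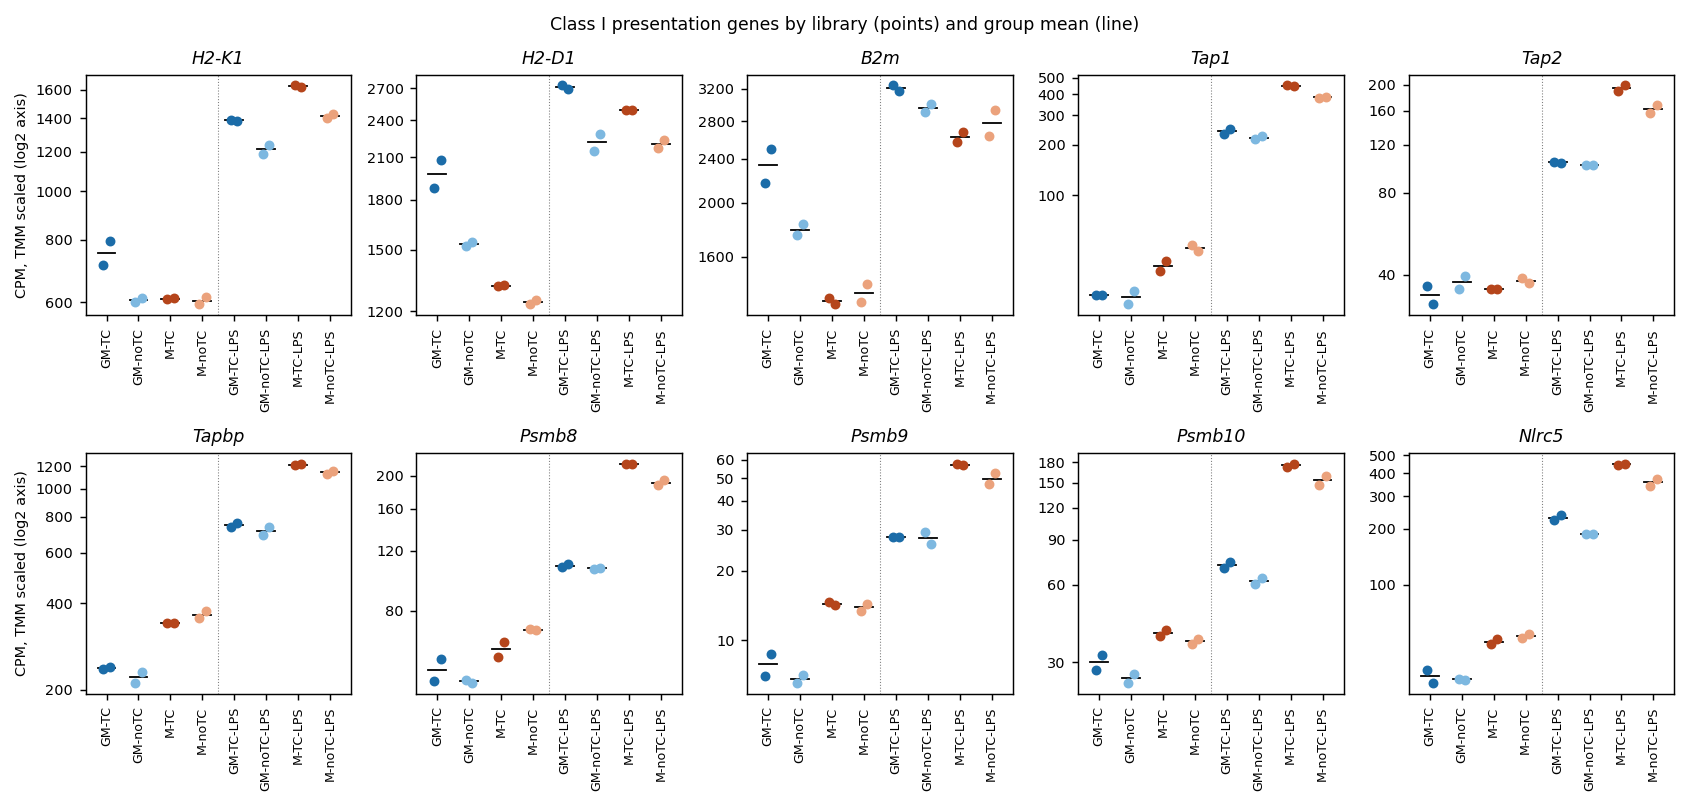
Level of each of the 10 members in every library (points, CPM scaled with TMM factors, log2 axis with a range of its own for each gene), with the group mean as a line and the 4 groups without LPS to the left of the dotted line. On this scale the 8 LPS libraries lie above the 8 libraries without LPS for all 10 members. With library size alone they do so for 6. The share of all tested genes that do so was not counted, and 32.8% to 37.6% of them were called higher in the LPS comparisons with TMM.

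All 10 members rose upon LPS challenge in all 4 kinds of cells with TMM scaling, while with library size alone H2-D1 and B2m in GM-TC had values below 0. Here and below, values that come in fours are for GM-TC, then GM-noTC, then M-TC and last M-noTC cells. The 10 of 10 called higher compare with backgrounds in which 32.8%, 33.6%, 37.6% and 36.4% of all tested genes were called higher and 34.2%, 34.0%, 36.4% and 35.9% lower. Calls in either direction covered 67.0%, 67.7%, 74.0% and 72.3% of genes. The median log2 fold change of the members was 1.44, 1.34, 1.91 and 1.74, against medians of -0.051 to -0.0061 over all tested genes. The range was wide, from 1.37-fold for H2-D1 in GM-TC to 11.9-fold for Tap1 in M-TC. TMM factors were between 1.11 and 1.39 without LPS and between 0.778 and 0.842 with it, and with library size alone the median gene shifted to between -0.53 and -0.83 on the log2 scale. Of all calls, 49.1% to 51.1% were lower with TMM and 78.5% to 81.0% with library size. On that scale H2-D1 and B2m had log2 fold changes of -0.027 and -0.023 in GM-TC, neither of them called, while the other 8 members were called higher in all 4 kinds of cells.

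The transactivator Nlrc5 was at 34.8 and 29.6 CPM in GM-TC beside 30.9 and 30.9 in GM-noTC, and 47.8 and 51.2 in M-TC beside 51.9 and 54.6 in M-noTC at steady state. Upon LPS challenge it was at 223 and 237 CPM in GM-TC-LPS beside 188 and 189 in GM-noTC-LPS, and 442 and 449 in M-TC-LPS beside 341 and 374 in M-noTC-LPS. Every LPS library was thus above every library without LPS, and at both states the GM libraries were below the M libraries. Its log2 fold changes were 2.84, 2.61, 3.17 and 2.75, the first with an SE of 0.071 and an adjusted p of 1.90e-19 (edgeR).

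Among the genes of the loading complex, Tap1 had the largest response of the 10 members in each kind of cell. It was at 25.3 and 25.5 CPM in GM-TC beside 22.3 and 26.9 in GM-noTC, and 35.4 and 40.3 in M-TC beside 50.2 and 46.7 in M-noTC at steady state. After LPS it was at 231 and 249.4 CPM in GM-TC-LPS beside 216 and 225 in GM-noTC-LPS, and 450.1 and 448 in M-TC-LPS beside 380.1 and 385 in M-noTC-LPS. The LPS and steady state libraries did not overlap, and M libraries were above GM libraries at both states. Its log2 fold changes were 3.24, 3.16, 3.57 and 2.98, the first with an SE of 0.078 and an edgeR adjusted p of 8.62e-20. Its partner subunit Tap2, with which it forms the transporter, was at 36.3 and 31.2 CPM in GM-TC beside 35.5 and 39.6 in GM-noTC, and 35.6 and 35.6 in M-TC beside 38.9 and 37.4 in M-noTC at steady state. With LPS, Tap2 was at 104 and 103 CPM in GM-TC-LPS beside 101 and 101 in GM-noTC-LPS, and 189.8 and 198 in M-TC-LPS beside 158 and 168 in M-noTC-LPS. The steady state groups overlapped, whereas with LPS each M library was above each GM library. The log2 fold changes of Tap2 were 1.62, 1.43, 2.45 and 2.10.
Tapbp, the chaperone tapasin, was at 236 and 241 CPM in GM-TC beside 212 and 230.4 in GM-noTC, and 341 and 341 in M-TC beside 355 and 376 in M-noTC. It was at 737 and 758 CPM in GM-TC-LPS beside 689 and 737 in GM-noTC-LPS, and 1208 and 1223 in M-TC-LPS beside 1125 and 1156 in M-noTC-LPS upon LPS challenge. GM and M libraries did not overlap at either state. Its log2 fold changes were closer to each other than those of Tap2, at 1.65, 1.69, 1.84 and 1.64.

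The genes of the class I molecule itself were already abundant and had the smallest responses. H2-K1 was at 713 and 795 CPM in GM-TC beside 599 and 612 in GM-noTC, and 608 and 611 in M-TC beside 593 and 615 in M-noTC at steady state, where only GM-TC stood above the others. With LPS it was at 1389 and 1386 CPM in GM-TC-LPS beside 1187 and 1241 in GM-noTC-LPS, and 1630.0 and 1622 in M-TC-LPS beside 1404 and 1432 in M-noTC-LPS. The log2 fold changes of H2-K1 were 0.88, 1.004, 1.42 and 1.23, the first with an SE of 0.050 and an adjusted p of 5.93e-13 by edgeR.
H2-D1 was at 1876 and 2079 CPM in GM-TC beside 1518 and 1541 in GM-noTC, and 1313 and 1321 in M-TC beside 1229 and 1249.6 in M-noTC, highest in GM-TC. After LPS, H2-D1 was at 2725 and 2690.2 CPM in GM-TC-LPS beside 2149 and 2285 in GM-noTC-LPS, and 2489.7 and 2489 in M-TC-LPS beside 2172 and 2239 in M-noTC-LPS, and GM-TC-LPS was again the highest group. The log2 fold changes were 0.45, 0.54, 0.92 and 0.83, which with library size alone were -0.027, 0.027, 0.092 and 0.11, the last of them called higher.
The light chain B2m was at 2168 and 2499.6 CPM in GM-TC beside 1751 and 1829 in GM-noTC, and 1352 and 1316 in M-TC beside 1331 and 1433 in M-noTC. Its LPS libraries were at 3243 and 3164 CPM in GM-TC-LPS beside 2909 and 3007 in GM-noTC-LPS, and 2568 and 2679.8 in M-TC-LPS beside 2633 and 2927 in M-noTC-LPS. GM libraries were above M libraries at steady state, and with LPS they overlapped on noTC dishes. The log2 fold changes of B2m were 0.46, 0.72, 0.98 and 1.01, and with library size alone -0.023, 0.22, 0.15 and 0.28, all but the first called higher. Reads of class I heavy chains may be split among near-identical genes, so the counts of H2-K1 and H2-D1 are uncertain, and the sum over 19 class I heavy chain genes rose by 0.71, 0.82, 1.20 and 1.07.

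The immunoproteasome genes responded between these extremes. Psmb8, which encodes the chymotrypsin-like subunit LMP7, was at 49.7 and 57.7 CPM in GM-TC beside 50.2 and 49.1 in GM-noTC, and 58.6 and 64.9 in M-TC beside 70.5 and 70.2 in M-noTC. Upon LPS challenge Psmb8 was at 107 and 110.0 CPM in GM-TC-LPS beside 106 and 107 in GM-noTC-LPS, and 216 and 217 in M-TC-LPS beside 188 and 194 in M-noTC-LPS. All M-CSF libraries with LPS were above all GM-CSF libraries with LPS. Psmb8 had log2 fold changes of 1.01, 1.10, 1.81 and 1.44.
Psmb9, which encodes LMP2 and starts next to Tap1, had the lowest CPM of the members, not corrected for length, at 7.02 and 8.74 CPM in GM-TC beside 6.56 and 7.09 in GM-noTC, and 14.6 and 14.2 in M-TC beside 13.4 and 14.4 in M-noTC. It was at 27.8 and 27.9 CPM in GM-TC-LPS beside 29.4 and 26 in GM-noTC-LPS, and 57.7 and 56.8 in M-TC-LPS beside 47.2 and 52.4 in M-noTC-LPS with LPS. GM and M libraries did not overlap at either state, and the log2 fold changes were 1.81, 2.02, 1.99 and 1.84, smaller than those of Tap1 in each kind of cell.
Psmb10, which encodes MECL-1, was at 27.9 and 32.01 CPM in GM-TC beside 24.9 and 27.0 in GM-noTC, and 38.0 and 39.9 in M-TC beside 35.4 and 36.9 in M-noTC. After LPS it was at 69.5 and 73.9 CPM in GM-TC-LPS beside 60.5 and 64.0 in GM-noTC-LPS, and 172 and 178 in M-TC-LPS beside 147 and 159.6 in M-noTC-LPS. M libraries with LPS were far above GM libraries with LPS. Its log2 fold changes were 1.25, 1.26, 2.17 and 2.08, and that in M-TC, a 4.49-fold rise, had an adjusted p of 7.97e-18 (edgeR).

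**Figure D2:**
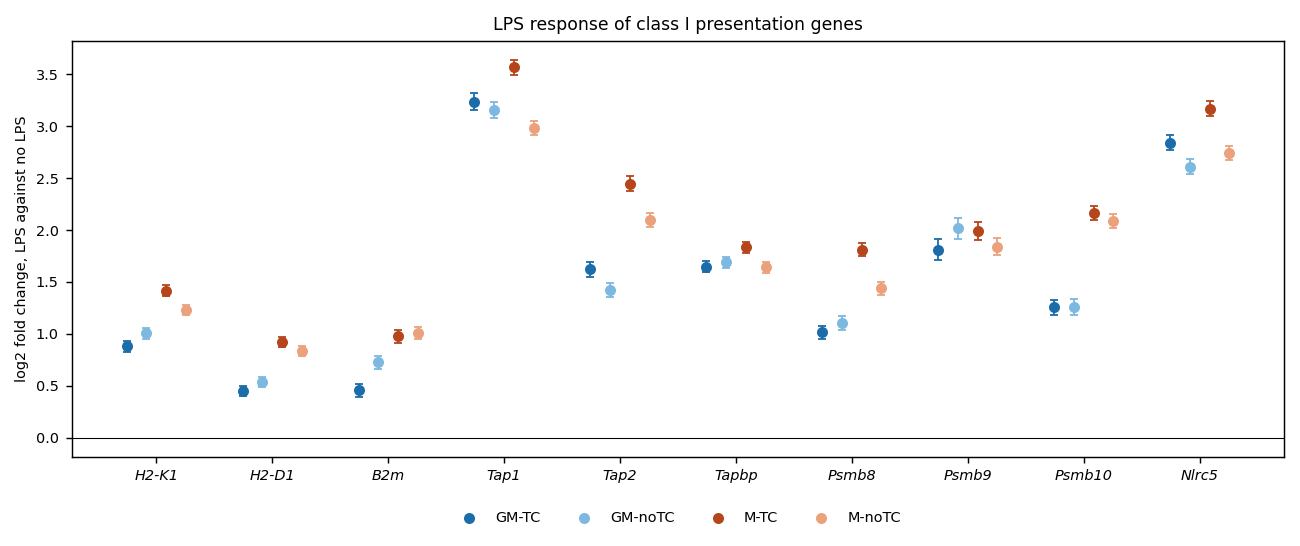
Log2 fold change of each member upon LPS challenge (points, bars are SE from the edgeR fit, n = 2 per group) in GM and M cells from TC and noTC dishes. All points are filled, meaning called at an adjusted p under 0.05, from 0.45 for H2-D1 to 3.57 for Tap1, and with library size alone H2-D1 and B2m in GM-TC fall to -0.027 and -0.023.

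Counts of other pathway genes stand against the same backgrounds as those of the members, and with library size alone 17.2%, 16.4%, 16.3% and 16.1% of all tested genes were called higher and 62.7%, 63.8%, 69.1% and 68.5% lower in the LPS comparisons, TC before noTC dishes, of GM and then of M cells. Of 18 other class I heavy chain genes, 9 were tested, and all 9 rose in all 4 comparisons, also with library size alone. H2-M2, a nonclassical heavy chain, went from 6.36 and 5.96 CPM in GM-TC to 159.8 and 188 in GM-TC-LPS, and from 0.359 and 0.374 in M-TC to 14.2 and 16.3 in M-TC-LPS, log2 fold changes of 4.82 and 5.35. H2-Q7, a Qa-2 heavy chain, rose by 2.94, 3.66, 4.48 and 3.63 on the log2 scale. Of the 4 class I-like genes, 1 rose and 3 fell in each kind of GM cell, and 2 fell in each kind of M cell, where with library size alone all 4 fell. Mr1, which presents vitamin B metabolites, fell with log2 fold changes of -0.88, -0.68, -1.44 and -1.13. Cd1d1, which presents lipids, rose in GM-TC and GM-noTC (0.79 and 0.86) and had uncalled values of 0.29 and 0.041 in M-TC and M-noTC, which with library size alone were -0.54 and -0.68.

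Of 6 genes of peptide loading and trimming in the endoplasmic reticulum, 5 rose in each kind of GM cell and 6 in each kind of M cell, whereas with library size alone 2 rose and 3 or 4 fell. Tapbpl, which encodes the tapasin-related editor TAPBPR, rose by 1.64, 1.48, 1.76 and 1.76, and the chaperone gene Hspa5 by 1.03, 1.02, 1.33 and 1.08. The 3 constitutive catalytic subunits were higher with LPS in 3, 2, 3 and 3 cases. Psmb5 had log2 fold changes of 0.33, 0.18, 0.62 and 0.44, the second not called, and below 0 with library size alone in all 4. Psmb6 rose by 1.02, 1.15, 1.36 and 1.11, and Psmb7 by 0.55, 0.51, 0.99 and 0.72, values that with library size alone became 0.070, 0.0040, 0.16 and -0.0038. Of the other 11 subunits of the 20S core, 9, 10, 11 and 11 rose, with Psma6 at 0.82, 0.79, 1.67 and 1.27 and Psma5 at 1.03, 0.95, 1.55 and 1.36, and with library size alone 5, 4, 7 and 5 rose while 4, 4, 4 and 3 fell. Of 21 subunits of the 19S regulatory particle, 17, 18, 19 and 19 rose, among them Psmd10 with 0.79, 1.07, 1.34 and 1.41 and Psmd11 with 0.78, 0.76, 1.12 and 0.92, but with library size alone 3, 2, 5 and 3 rose and 8, 10, 11 and 13 fell.

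The PA28 activator genes were the strongest of 9 activator and assembly genes, of which 5 rose in each comparison, or 2, 2, 3 and 2 with library size alone, where 6, 6, 4 and 5 fell. Psme1 rose by 1.37, 1.22, 1.52 and 1.30 and Psme2 by 1.74, 1.81, 2.24 and 2.01, and both were called higher with library size alone. Of 6 tested peptidases, cytosolic except for Lnpep, 3 rose in each kind of GM cell and 5 in each kind of M cell. With library size alone 2 rose in each, and 4, 4, 1 and 3 fell. The leucine aminopeptidase gene Lap3 was at 1.44, 1.503, 1.74 and 1.66. Lnpep, which encodes an endosomal aminopeptidase, was at 0.93, 0.94, 1.54 and 1.66. Of 15 regulators of class I transcription, 11, 10, 11 and 10 rose and 3, 2, 2 and 4 fell, or 8 rose and 6, 5, 6 and 5 fell with library size alone. Irf1 rose by 4.52, 4.40, 3.93 and 4.18 and Stat2 by 3.09, 3.09, 2.19 and 1.87. Over the 94 genes of these lists, 84 were tested, with medians of 0.47, 0.45, 0.77 and 0.62.

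At steady state the pathway was split between GM and M cells. Transcripts of B2m and H2-D1 were higher in GM cells on both dishes with TMM, and those of H2-K1 on TC dishes. With library size alone H2-K1 turned below 0, and B2m and H2-D1 were not called on noTC dishes. The other members except Tap2 were higher in M cells. On TC dishes 3 members were higher and 6 lower in GM cells, and Tap2 was not called, where 61.5% of tested genes were called (32.6% higher, 28.9% lower). B2m was 1.75-fold higher in GM-TC than in M-TC cells (log2 fold change 0.81 ± 0.061, edgeR adjusted p = 1.23e-10), H2-D1 had a log2 fold change of 0.59 and H2-K1 of 0.31. Psmb9 was 1.81-fold lower in GM-TC cells (-0.86 ± 0.11, adjusted p = 4.91e-07). Lower as well were Nlrc5 at -0.62, Tap1 at -0.57, Tapbp at -0.51, Psmb10 at -0.38 and Psmb8 at -0.20. The call of Psmb8 was lost without GM-TC replicate 1 or M-TC replicate 2 (-0.12 and -0.14), and Tap2, at -0.081, was called lower without GM-TC replicate 1 (-0.21). Psmb8 was also not called with the compared libraries alone (-0.21, adjusted p = 0.0886, edgeR).

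On noTC dishes 2 members were higher and 6 lower in GM cells, where 62.1% of genes were called (31.4% higher, 30.7% lower). H2-D1 and B2m were higher, with log2 fold changes of 0.30 and 0.37. H2-K1 had 599 and 612 CPM in GM-noTC and 593 and 615 in M-noTC, and these libraries overlapped. The lower members were Psmb9 (-1.02), Tap1 (-0.97), Nlrc5 (-0.79), Tapbp (-0.73), Psmb8 (-0.50) and Psmb10 (-0.48). With library size alone the median gene was lower in GM cells by 0.29 on both dishes, and 72.1% and 72.5% of calls were lower, against 47.0% and 49.4% with TMM. On that scale H2-K1 turned to -0.0059 on TC and -0.29 on noTC dishes, and H2-D1 and B2m were higher on TC dishes (0.27 and 0.49) but were not called on noTC dishes (0.012 and 0.083). Loading, immunoproteasome and transactivator genes other than Tap2 were lower in GM cells on both scales, and Tap2 was lower only with library size, at -0.39 and -0.31.

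Upon LPS challenge 8 members were lower in GM than in M cells on both dishes, where 66.8% of genes were called on TC dishes (33.9% higher, 32.9% lower) and 66.1% on noTC dishes (33.5% higher, 32.6% lower). The largest difference was that of Psmb10, 2.44-fold lower in GM-TC-LPS than in M-TC-LPS (-1.29 ± 0.066, adjusted p = 1.29e-13, edgeR) and -1.30 on noTC dishes. Log2 fold changes on TC dishes were -1.04 for Psmb9, -0.99 for Psmb8, -0.95 for Nlrc5, -0.91 for Tap2, -0.90 for Tap1, -0.70 for Tapbp and -0.23 for H2-K1. On noTC dishes they lay between -0.92 for Nlrc5 and -0.22 for H2-K1. B2m was higher in GM-TC-LPS than in M-TC-LPS (0.29, adjusted p = 2.71e-04), and its libraries overlapped on noTC dishes (0.089, adjusted p = 0.202). H2-D1 was called higher on TC dishes at 0.12 (adjusted p = 0.0328), a call lost when any 1 of the 4 libraries was left out, with values of 0.11 without GM-TC-LPS replicate 1, 0.13 without GM-TC-LPS replicate 2 and 0.12 without either M-TC-LPS library, and lost with DESeq2 or its size factors in edgeR (0.084 each, adjusted p = 0.112 and 0.110). The class I heavy chain sum had the opposite sign there (-0.051, not called) and was called lower on noTC dishes (-0.11, edgeR adjusted p = 0.0495).

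The sum of dendritic cell markers differed with the growth factor, though not every marker did. The 7 markers Flt3, Zbtb46, Ccr7, Cd209a, Xcr1, Clec9a and Itgax summed to 939 to 1098 CPM in GM libraries and to at most 63.1 CPM in M libraries. All 7 had counts, and Itgax made up most of the sum (893 to 1014 CPM in GM, 14.7 to 58.8 in M). Ccr7 reached 62.0 CPM and Clec9a 31.8 CPM in GM, against at most 0.698 and 0.513 CPM in M. GM and M libraries overlapped for Xcr1 (0.151 to 3.13 against 0.101 to 2.82 CPM) and Flt3 (0.121 to 0.511 against 0 to 0.150 CPM). The other markers did not overlap. In M cells the sum was also higher on noTC dishes, with 17.1 and 15.97 CPM in M-TC and 48.1 and 48.5 in M-noTC. With LPS it was 24.9 and 27.2 CPM on TC dishes and 63.1 and 58.5 CPM on noTC dishes. The 6 neutrophil markers summed to 4.54 to 16.5 CPM in GM libraries, higher with LPS, and to at most 1.13 CPM in M libraries. The part of these markers in the differences between GM and M cells and between dishes was not tested.

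**Figure D3:**
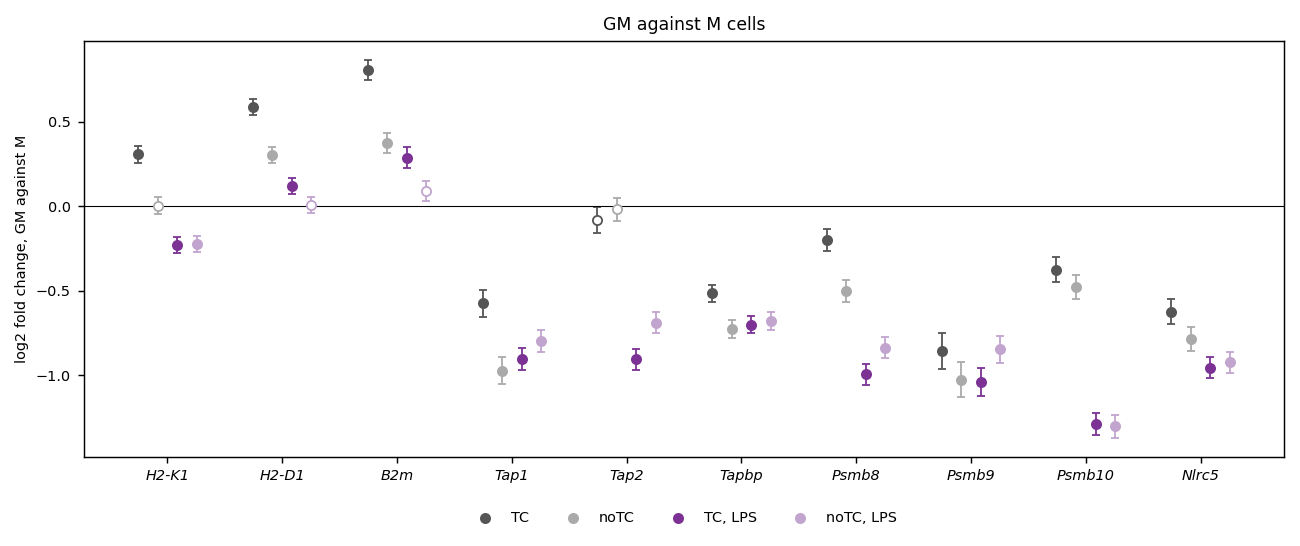
Log2 fold change of each member in GM against M cells (points, bars are SE from the edgeR fit, n = 2 per group) on TC and noTC dishes, without and with LPS, with open points for values not called. The 3 genes of the class I molecule lie at or above 0 at steady state and the other 7 below it. With library size alone H2-K1 falls to -0.0059 on TC and -0.29 on noTC dishes. On that scale H2-D1 and B2m are not called on noTC dishes at steady state (0.012 and 0.083).

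The LPS response itself was smaller in GM than in M cells for most members with TMM, and for fewer with library size alone. On TC dishes the difference between the log2 fold changes was below 0 and called for 9 of 10 members, where 41.1% of genes were called (17.8% above 0, 23.3% below). It was -0.91 ± 0.10 for Psmb10 (edgeR, adjusted p = 1.50e-07), -0.83 for Tap2 and -0.80 for Psmb8. H2-K1, B2m and H2-D1 followed with -0.54, -0.52 and -0.47. Nlrc5 (-0.33), Tap1 (-0.33) and Tapbp (-0.19) had smaller differences, and with library size alone these 3 turned to 0.015, 0.017 and 0.16 without being called. The call of Nlrc5 was lost without GM-TC replicate 1 (-0.20) or M-TC replicate 1 (-0.27), that of Tap1 without GM-TC-LPS replicate 1 (-0.27) or M-TC replicate 1 (-0.23), and that of Tapbp without any 1 of the libraries other than GM-TC replicate 1 (-0.17 to -0.21). Tapbp was not called either without the expression filter or with the compared libraries alone (-0.17 each, edgeR adjusted p = 0.0860 and 0.0980). Psmb9 was not called, at -0.18 ± 0.14. With library size alone the median gene had a difference of 0.30, the share of calls below 0 went from 56.8% to 21.1%, and 4 members were called below 0, Psmb10 (-0.56), Tap2 (-0.48), Psmb8 (-0.45) and H2-K1 (-0.19).

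On noTC dishes the difference was called below 0 for 6 members, where 36.2% of genes were called (16.9% above 0, 19.3% below). Psmb10 had -0.83 ± 0.099 (adjusted p = 7.00e-07, edgeR) and Tap2 -0.67. Psmb8, H2-D1, B2m and H2-K1 had -0.34, -0.30, -0.28 and -0.23. Tap1, Psmb9, Tapbp and Nlrc5 were not called, at 0.18, 0.18, 0.048 and -0.14. The calls of B2m (-0.21 to -0.26) and H2-K1 (-0.19 to -0.21) were lost without GM-noTC replicate 2, GM-noTC-LPS replicate 1, M-noTC replicate 1 or M-noTC-LPS replicate 2, and Tap1 was called above 0 without GM-noTC replicate 2 (0.33). With library size alone, where the median was 0.19 and the share of calls below 0 went from 53.4% to 26.8%, Psmb10 and Tap2 were called below 0 (-0.61 and -0.45) and Tap1, Psmb9 and Tapbp above it (0.39, 0.40 and 0.26). Psmb10 and Tap2 were thus the members called below 0 on both dishes and both scales. Psmb8, H2-K1, H2-D1 and B2m also had values below 0 in each case. On noTC dishes with library size alone these were -0.12, -0.0099, -0.079 and -0.066, none of them called.

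The relation of immunoproteasome to constitutive subunits does not depend on the scaling, since both genes are read from the same library. The ratio of counts per transcript base of Psmb8 to Psmb5 was 0.560 and 0.537 in GM-TC beside 0.531 and 0.479 in GM-noTC, and 1.05 and 1.04 in M-TC beside 1.10 and 1.05 in M-noTC. With LPS it was 0.847 and 0.910 in GM-TC-LPS beside 0.895 and 1.03 in GM-noTC-LPS, and 2.30 and 2.44 in M-TC-LPS beside 2.11 and 2.20 in M-noTC-LPS. GM libraries were below M libraries at each state, and each LPS group was above its steady state group.
For Psmb9 to Psmb6 the ratio was 0.0710 and 0.0748 in GM-TC beside 0.0687 and 0.0747 in GM-noTC, and 0.197 and 0.183 in M-TC beside 0.162 and 0.166 in M-noTC. It was 0.128 and 0.126 in GM-TC-LPS beside 0.133 and 0.129 in GM-noTC-LPS, and 0.288 and 0.299 in M-TC-LPS beside 0.267 and 0.280 in M-noTC-LPS. Even with LPS the GM libraries did not reach the level of M cells at steady state.
Psmb10 to Psmb7 stood at 0.578 and 0.546 in GM-TC beside 0.481 and 0.462 in GM-noTC, and 0.872 and 0.913 in M-TC beside 0.712 and 0.696 in M-noTC. With LPS it stood at 0.846 and 0.985 in GM-TC-LPS beside 0.761 and 0.819 in GM-noTC-LPS, and 1.99 and 2.05 in M-TC-LPS beside 1.73 and 1.89 in M-noTC-LPS. The noTC libraries were below the TC libraries at steady state in both kinds of cells. Within the transporter, the ratio of Tap1 to Tap2 ranged from 0.733 to 1.51 without LPS and from 2.49 to 2.81 with it. GM cells were below M cells at steady state (0.733 to 0.955 against 1.16 to 1.51), and with LPS the groups overlapped. The ratio of H2-K1 to H2-D1 ranged from 0.493 to 0.639 without LPS and from 0.662 to 0.850 with it, GM libraries being below M libraries at each state, with the limit of shared reads given above. No test was run on these ratios.

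**Figure D4:**
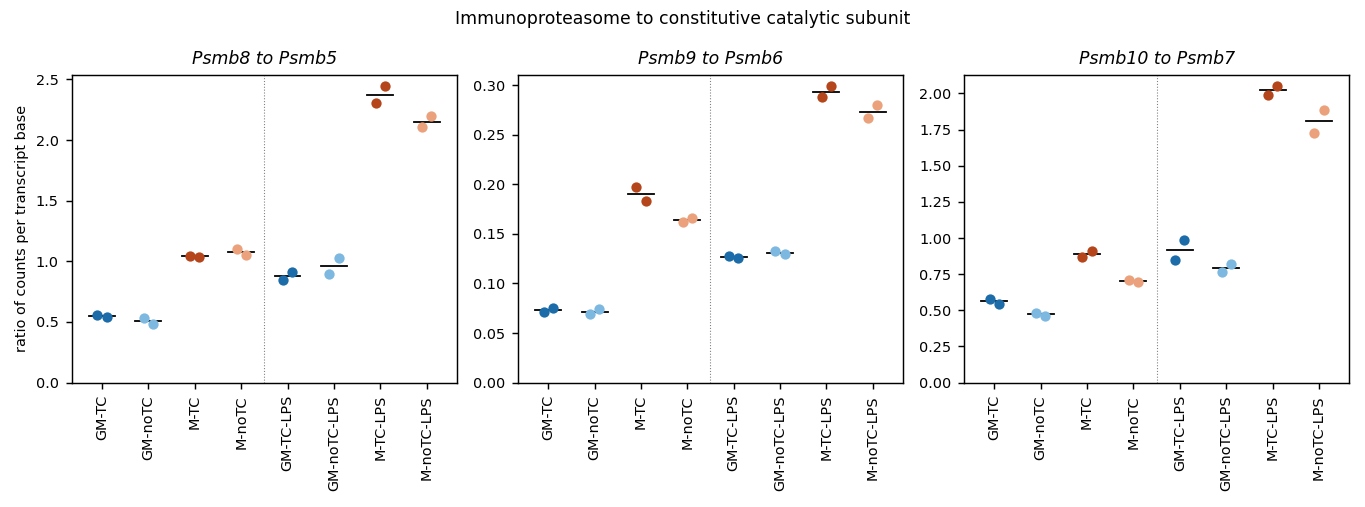
Ratio of counts per transcript base of each immunoproteasome subunit to the constitutive subunit it replaces, in every library (points) with the group mean as a line, groups without LPS to the left of the dotted line. M libraries are above GM libraries at the same state in all 3 panels, and the ratio of Psmb8 to Psmb5 reaches 2.30 to 2.44 in M-TC-LPS against 0.537 to 0.560 in GM-TC.

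The dish surface gave log2 fold changes of at most 0.38 in size, against 3.57 for LPS and 1.30 for the growth factor. In GM cells at steady state the 3 genes of the class I molecule were lower on noTC than on TC dishes and the other 7 members were not called, where 7.54% of genes were called (4.69% higher, 2.85% lower). The log2 fold changes were -0.38 ± 0.061 for B2m (adjusted p = 2.20e-04, edgeR), -0.37 ± 0.049 for H2-D1 (adjusted p = 2.29e-05) and -0.32 ± 0.050 for H2-K1 (adjusted p = 2.00e-04). GM-TC and GM-noTC libraries did not overlap for any of these 3 genes, nor for Tapbp and Psmb10, which were not called. The share of all genes without overlap was not counted. For 2 against 2 libraries, the smallest two-sided p of an exact permutation test is 0.333. The GM-TC replicates differed from each other more than those of other groups (chi-square over genes per degree of freedom 12.5 against 1.91 to 5.13), and B2m stood at 2168 and 2499.6 CPM in them. With the 4 compared libraries alone, H2-K1 missed the threshold (-0.32, edgeR adjusted p = 0.0564). Without GM-TC replicate 1, Psmb8 (-0.22) and Psmb10 (-0.30) were also called lower and Tap2 (0.27) higher. Of the 9 other class I heavy chains tested, 4 were lower and none was called higher, H2-Q7 among the lower ones at -0.79.

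In M cells at steady state Tap1 (0.35 ± 0.074, adjusted p = 0.00101) and Psmb8 (0.19 ± 0.064, adjusted p = 0.0330) were higher on noTC dishes by edgeR, where 27.2% of genes were called (16.1% higher, 11.1% lower). Tap1 libraries did not overlap, at 35.4 and 40.3 CPM in M-TC and 50.2 and 46.7 in M-noTC. Psmb8 stood at 58.6 and 64.9 and 70.5 and 70.2 CPM, again without overlap. The uncalled H2-D1, Tap2, Tapbp, Psmb10 and Nlrc5 did not overlap between these groups either. Neither was called without M-TC replicate 1 (0.26 and 0.11), and Psmb8 was not called without M-noTC replicate 1 or 2 either (0.18 and 0.19), nor with DESeq2 or its size factors in edgeR (0.17 each, adjusted p = 0.0760 and 0.0547). The dish difference of GM cells minus that of M cells was called below 0 for 5 members, where 11.2% of genes were called (4.82% above 0, 6.40% below), with B2m at -0.43 ± 0.086 (adjusted p = 0.00176), Tap1 at -0.40, H2-K1 at -0.30, Psmb8 at -0.30 and H2-D1 at -0.28. Counts of called members were 2 without GM-noTC replicate 1 and 3 without M-noTC replicate 1 or M-TC replicate 1, and Psmb8 kept its call without GM-TC replicate 1 or M-TC replicate 2 only (-0.19 to -0.32 without each of the others). Psmb8 was also not called with DESeq2 (-0.27, adjusted p = 0.0689), with DESeq2 size factors in edgeR (-0.27, adjusted p = 0.0639), with library size alone (-0.28, adjusted p = 0.0510) or with the compared libraries alone (-0.30, adjusted p = 0.109), and Tap1 not with the compared libraries alone (-0.39, adjusted p = 0.0866). The heart muscle markers, present in TC libraries at steady state, moved with these dish comparisons and with the LPS comparisons on TC dishes. In all other libraries they summed to at most 0.237 CPM, and their part was not tested.

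With LPS, GM-noTC cells were lower than GM-TC cells for H2-D1 (-0.29 ± 0.049, adjusted p = 0.00108), Nlrc5 (-0.29, adjusted p = 0.0107) and H2-K1 (-0.19, adjusted p = 0.0366) by edgeR, where 2.80% of genes were called (2.08% higher, 0.727% lower). Some of these calls were lost with 1 library left out. Nlrc5 had -0.28 without GM-noTC-LPS replicate 1, -0.29 without GM-noTC-LPS replicate 2 and -0.24 without GM-TC-LPS replicate 2, and H2-K1 -0.16 to -0.22 without any 1 of the 4 libraries, none of them called, whereas H2-D1 kept its call. In M cells 7 members were lower on noTC dishes, where 23.3% of genes were called (10.4% higher, 12.9% lower). Nlrc5 had the largest difference, from 442 and 449 CPM in M-TC-LPS to 341 and 374 in M-noTC-LPS (-0.32 ± 0.061, edgeR, adjusted p = 5.41e-04). Tap2 (-0.25), Tap1 (-0.23), H2-K1 (-0.20), Psmb10 (-0.19), Psmb8 (-0.18) and H2-D1 (-0.17) were lower too. Nlrc5 was called whichever library was left out. The other 6 kept values below 0, between -0.13 and -0.24 where the call was lost, and the members called were 1 without M-noTC-LPS replicate 1, 3 without M-TC-LPS replicate 1, 2 without M-TC-LPS replicate 2 and 5 without M-noTC-LPS replicate 2. Scaled by library size alone, Nlrc5 (-0.23) was the only member called lower while B2m (0.17) was called higher, as the share of calls below 0 went from 55.5% to 29.5%.

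The LPS response of M cells was smaller on noTC than on TC dishes for 4 members, where 10.6% of genes were called (3.11% above 0, 7.48% below). The differences were -0.58 ± 0.098 for Tap1 (edgeR, adjusted p = 3.85e-04), -0.42 ± 0.091 for Nlrc5 (adjusted p = 0.00392), -0.37 for Psmb8 and -0.35 for Tap2. The call of Tap2 was lost without M-noTC replicate 1 or 2, M-noTC-LPS replicate 1, M-TC replicate 1 or 2, or M-TC-LPS replicate 2 (-0.31 to -0.37). Without M-TC replicate 1 a single one of the 4 was called, and with library size alone 2, Tap1 (-0.48) and Nlrc5 (-0.32), the share of calls below 0 going from 70.6% to 38.9%. In GM cells no member was called for this difference, where 0.783% of genes were called (0.192% above 0, 0.591% below), and B2m had the largest value at 0.27 ± 0.086 (adjusted p = 0.240). Without GM-TC replicate 1, 3 members were called, B2m (0.37) and H2-K1 (0.21) above 0 and Nlrc5 (-0.34) below it. With LPS, no member was called for a dish difference between GM and M cells, where 10.6% of genes were called (6.87% above 0, 3.71% below), and the values lay between -0.20 for B2m and 0.22 for Tap2. With library size alone B2m (-0.31) and H2-D1 (-0.22) were called below 0, and the share of calls below 0 went from 35.0% to 67.1%.

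**Figure D5:**
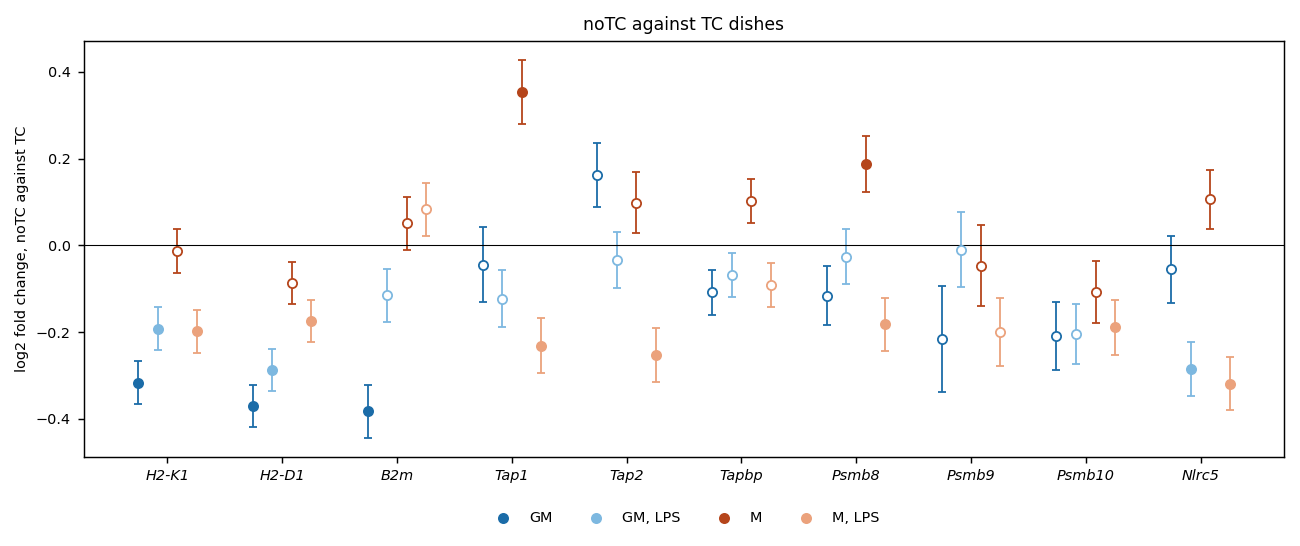
Log2 fold change of each member on noTC against TC dishes (points, bars are SE from the edgeR fit, n = 2 per group) in GM and M cells, without and with LPS, with open points for values not called. All values lie between -0.38 and 0.35, and with library size alone B2m in M cells with LPS is called higher, at 0.17.

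The genes whose pattern over the 8 groups was most like that of each member were found among 11044 genes with a mean of at least 1 CPM, by the root mean square (RMS) difference of centred log2 (CPM + 1) group means. Nearest to Nlrc5 were Rnf31, which encodes the ubiquitin ligase HOIP (RMS difference 0.092), March5 (0.11) and Pcgf5 (0.13). Tap1 was nearest to Zup1 (0.14), the largest distance of the 10, and Tapbp to Phtf2 (0.048), the smallest. Psmb9 was nearest to Ogfr (0.057), Tap2 to Ankrd17 (0.054), Psmb8 to Zfp513 (0.074) and Psmb10 to Asb13 (0.099). For H2-K1, H2-D1 and B2m the nearest genes were Ccdc6 (0.083), Sh3bgrl (0.077) and Eef1akmt4 (0.093). Rnf31, for example, had a mean of 16.4 CPM in GM-TC and 224 CPM in M-TC-LPS, where Nlrc5 had 32.2 and 446 CPM. No member was the nearest gene of another member.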

How the data were processed

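RNA-seq was performed on 16 libraries of BMDMs in 8 groups of 2, assigned from the sample labels. The authors aligned reads with HISAT2 and used RSEM for quantification. Expected counts for each gene, not normalized, were deposited. The submitters' processing notes list fastp 0.18.0, Bowtie2 2.2.8, HISAT2, StringTie 1.3.1, RSEM, DESeq2 and edgeR. Genome build and annotation release are not given in the sources used here, nor is the strand setting. Expected counts were rounded, since 6.56% to 8.19% of genes per library had a fractional value.

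All genes were fitted with edgeR 4.0.16 in R 4.3.3 (filterByExpr by group, TMM factors, quasi-likelihood fit over 8 group means, no replicate block), and p-values were BH adjusted over the 12514 genes tested in each of 12 comparisons between groups and 6 differences between responses. The biological coefficient of variation was 4.75%. The floor of 3 counts covers counting error only, while SDs and SEs include the spread between libraries. The members, gene lists and tests were chosen with earlier results of these data known. Named genes are the 10 members, Psmb5, Psmb6, Psmb7, Psme1, Psme2, the 2 genes of each other list with the largest log2 fold change among those called in a comparison with LPS, and the nearest patterns (3 for Nlrc5, 1 for each other member). H2-M3 and the cell type markers were named outside this rule. In the lists, H2-T9 and Nrdc were not matched, and the names of nearest genes came from a table of gene identifiers, since 1 symbol was listed as a date. Transcript lengths were those of the principal transcript in GENCODE M21 (GRCm38).

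Alternatives were DESeq2 size factors or library size only in edgeR, no expression filter, a fit to the compared libraries alone, DESeq2 1.42.0, the study's rule of a fold change above 2 with an unadjusted p under 0.05, a replicate block, leaving out each library, subtraction of a share of other libraries from the noTC libraries without LPS (0.675% in GM and 0.600% in M), and a sum over class I heavy chains. In simulated data for GM-TC-LPS against GM-TC (12514 genes), edgeR called 187 of 200 changed genes, 42 of 50 at 1.5-fold, and 11 unchanged ones. DESeq2 called 179 of 200 and 7 unchanged ones. Only these 200 genes were changed, and all genes were drawn with a single dispersion. In the real comparison 67.0% of genes were called and the GM-TC replicates differed most from each other, so these rates need not hold there.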

Additional observations from a re-analysis of the deposited data

Results flagged for a closer look

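For 24 pairs of member and comparison, the test of a difference between 2 responses passed the adjusted threshold (edgeR, BH adjusted over 12514 genes). The pairs come from 10 members and 6 differences. Of all tested genes, 41.1%, 36.2%, 10.6% and 11.2% were called in the differences listed below, in that order. No member was called in the LPS response of GM-noTC minus GM-TC or in the dish difference with LPS, where 0.783% and 10.6% of genes were called. The member values are differences between log2 fold changes, and no explanation was tested. The LPS response of GM-TC minus that of M-TC was -0.54 for H2-K1, -0.47 for H2-D1, -0.52 for B2m, -0.33 for Tap1, -0.83 for Tap2, -0.19 for Tapbp, -0.80 for Psmb8, -0.91 for Psmb10 and -0.33 for Nlrc5. On noTC dishes the same difference was -0.23 for H2-K1, -0.30 for H2-D1, -0.28 for B2m, -0.67 for Tap2, -0.34 for Psmb8 and -0.83 for Psmb10. The LPS response of M-noTC minus that of M-TC was -0.58 for Tap1, -0.35 for Tap2, -0.37 for Psmb8 and -0.42 for Nlrc5. The dish difference of GM minus that of M cells without LPS was -0.30 for H2-K1, -0.28 for H2-D1, -0.43 for B2m, -0.40 for Tap1 and -0.30 for Psmb8. With library size alone, 12 of the 24 differences were called in the same direction, and Tap1, Tapbp and Nlrc5 changed sign in the first comparison. How many calls over all genes were kept in this way was not counted. No rule for outlying samples was applied to groups of 2 libraries. The spread between replicates was compared across groups, and each library was left out in turn.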

How the results depend on the processing

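Members called higher with LPS, 10 in each of the 4 kinds of cells, were 8, 9, 9 and 10 with library size alone and 7, 8, 8 and 9 with the rule of a fold change above 2, and 10 in each under every other alternative to the test. With library size alone, log2 fold changes changed sign for H2-D1 (-0.027) and B2m (-0.023) upon LPS challenge in GM-TC, for H2-K1 in GM against M cells (-0.0059 on TC, -0.29 on noTC dishes), and for Nlrc5 (0.015), Tap1 (0.017) and Tapbp (0.16) in the LPS response of GM-TC minus M-TC. With the class I heavy chains summed, the sign of H2-D1 changed in GM against M cells with LPS (-0.051 on TC, -0.11 on noTC dishes). The cause was not tested. Library size also left 0 members higher in GM-noTC against M-noTC, 1 higher and 1 lower in M-noTC-LPS against M-TC-LPS, 4 lower in the LPS response of GM-TC minus M-TC, 3 higher and 2 lower in that of GM-noTC minus M-noTC, 2 lower in that of M-noTC minus M-TC and 2 lower in the dish difference of GM minus M with LPS.

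With the rule of a fold change above 2, members called higher were 0 in GM against M cells on TC and noTC dishes and on TC dishes with LPS, and 0 in M-noTC against M-TC. Members called lower were 0 in GM-TC against M-TC, 1 in GM-noTC against M-noTC, 2 and 1 in the same comparisons with LPS, and 0 in the dish comparisons and in each difference between responses that had called members. With the libraries of the comparison alone, 3 members were lower in the dish difference of GM minus M without LPS, 1 in that with LPS and 1 in M-noTC against M-TC. DESeq2 and its size factors in edgeR each called 1 member higher in GM-TC-LPS against M-TC-LPS and 1 in M-noTC against M-TC. Without the expression filter 1 member was higher in the LPS response of GM-noTC minus GM-TC.

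Leaving out 1 library each time gave 0 to 1 higher and 3 to 5 lower members in GM-noTC against GM-TC, 0 to 2 higher in M-noTC against M-TC, 1 to 2 lower in GM-noTC-LPS against GM-TC-LPS and 1 to 5 lower in M-noTC-LPS against M-TC-LPS. It gave 5 to 6 lower in GM-TC against M-TC and 1 higher in GM-TC-LPS against M-TC-LPS. For differences between LPS responses it gave 6 to 8 lower (GM-TC minus M-TC), 0 to 1 higher and 4 to 6 lower (GM-noTC minus M-noTC), 0 to 2 higher and 0 to 1 lower (GM-noTC minus GM-TC) and 1 to 4 lower (M-noTC minus M-TC), and 2 to 6 lower for the dish difference without LPS. Where 1 library of a group remained, it was assumed to vary like the other groups.

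Libraries with the same replicate number shared no detectable deviation from their group means (correlations between -0.069 and 0.062). These values cannot show whether such libraries came from the same mouse or culture. With the replicate block 1 call of a member changed, Tapbp in the dish difference of GM minus M without LPS (-0.21, adjusted p = 0.0429, edgeR), which made 6 members lower there in place of 5. Subtraction of other libraries' reads changed no call. With 2 libraries a group, small differences that were not called may exist.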
